A study of Mus musculus with 22 samples.

Results

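The genes described here encode the enzymes and regulators with which cells oxidise fatty acids, together with 1 enzyme of ketone body metabolism. They are 31 named genes, taken from the array by gene name, where Eci1 and Eci2 stand under their older names Dci and Peci. All 31 were on the array, with 42 probes. A gene counted as measured if the Cy5 signal stood well above background in 10 or more of the 22 arrays, and 29 of the 31 genes met this, among 16578 genes in all.

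The study examined white fat after a few hours of reduced oxygen in the air. The tissue was the epididymal depot, a fat pad of the abdomen, from male mice of the inbred strain C57BL/6JOlaHsd. In the hypoxia group, 10 mice were kept for 6 hours at 12% oxygen, and in the normoxia group 12 mice were kept for 6 hours at 20.9% oxygen. Mice of both groups arrived at 10 weeks of age, spent 3 weeks on a low-fat diet (10% of its energy as fat) and 6 weeks on a high-fat one (40%), and were fasted before the exposure. The labels' protocols also set high-fat against low-fat feeding without saying which mice this concerns, so diet was not modelled. Each mouse's RNA carried Cy5, and a pool of all samples carried Cy3 on the same array, in the same orientation for all mice. Every level below is therefore a log2 ratio to that pool, and every difference is hypoxia minus normoxia on the log2 scale.

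Fatty acids enter oxidation as CoA esters. Carnitine carries long chains into mitochondria, where acyl-CoA dehydrogenases, hydratases, hydroxyacyl-CoA dehydrogenases and thiolases shorten them in a repeating cycle. Electrons from the dehydrogenases pass through the electron transfer flavoprotein (ETF) to the respiratory chain, which needs oxygen. Peroxisomes run a cycle of their own for very long and branched chains. The nuclear receptor PPAR alpha switches on many of these genes in fasted liver. White adipocytes mainly store and release fatty acids, and oxidise a part of them.

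The array reads each gene with probes of 60 bases. The first 30 bases of 2 probes are shown because Acot1 and Acot2 are close relatives that lie side by side on chromosome 12 and gave very different values (the Acot1 probe lies at chr12:85358561-85358620 and the Acot2 probe at chr12:85334071-85334130, both on the plus strand of mm9). The bases are in lower case because no part of them was singled out.
Acot1 probe: tctatggaaactggagctatccaagaaaag
Acot2 probe: ggggaaacctcatatatattatcacaatgt
The longest run that these 2 probes share over all 60 bases is 6 bases, and at best 25 of 60 positions match. The probes of Acaa1a and Acaa1b, another pair of related genes, share at most 6 bases in a run and 22 of 60 positions. These values compare probe with probe, and whether a probe also binds the transcript of the related gene was not tested.

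The promoters of the members were searched for short DNA motifs on both strands, from 250 bases before to 50 bases after each gene's start, in RefSeq sequences of GRCm38.p6. Of the 31 genes, 26 matched an entry, with 28 promoters. The motif ACGTG, which with GCGTG forms the core bound by hypoxia-inducible factors, was present in the Acadvl promoter alone among these genes and in 19.6% of all 32851 promoters. GCGTG was present in 14 of the 26 genes and in 32.4% of all promoters. AAGGTCA, bound by estrogen-related receptors, was present in the Acadm promoter alone and in 4.72% of all promoters. TCAAGGTCA, a longer form that contains it, and the direct repeat with a 1-base spacer bound by PPAR with its partner RXR were in none of the 26, against 0.423% and 0.0396% of all promoters. Both promoters are shown because each is the single carrier of a motif. Capitals mark these motifs, here read on the other strand, so that ACGTG appears as CACGT, while the GCGTG motif appears as CACGC and the AAGGTCA motif as TGACCTT. The Acadvl promoter lies at chr11:70015379-70015678 and the Acadm promoter at chr3:153944594-153944893, both on the minus strand of GRCm38.p6.
Acadvl promoter: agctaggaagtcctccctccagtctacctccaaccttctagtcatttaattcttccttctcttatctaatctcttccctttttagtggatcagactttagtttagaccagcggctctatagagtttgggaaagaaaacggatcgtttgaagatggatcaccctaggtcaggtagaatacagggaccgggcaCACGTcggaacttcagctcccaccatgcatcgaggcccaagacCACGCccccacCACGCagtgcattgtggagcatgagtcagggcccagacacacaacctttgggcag
Acadm promoter: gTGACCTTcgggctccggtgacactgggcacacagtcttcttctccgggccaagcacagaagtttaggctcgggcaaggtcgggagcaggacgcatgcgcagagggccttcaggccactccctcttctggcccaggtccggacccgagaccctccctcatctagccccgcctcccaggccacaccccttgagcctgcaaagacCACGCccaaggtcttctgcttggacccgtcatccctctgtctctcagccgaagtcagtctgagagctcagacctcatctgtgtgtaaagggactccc
A match says that these letters stand in the window and nothing about binding.

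Between 15.6% and 76.8% of the spots of an array stood well above background in Cy5, and this share was lowest on slide 1, which held hypoxia replicates 5 and 7 and normoxia replicates 3 and 5. By the probe used for each of the 29 genes, 19 were above background on all arrays and 10 on 15 to 21 arrays. No member's probe was saturated on any array. All 8 adipocyte markers were measured. Of the 6 brown or beige markers, Cidea, Cox8b and Ppargc1a were measured, while Ucp1, Elovl3 and Dio2 were above background on at most 3 arrays. The mean of the measured brown or beige markers ran from -0.76 to -0.098 in hypoxia mice and from -0.43 to 0.59 in normoxia mice. Precision is limited by the number of arrays. The standard error (SE) of a member's difference had a median of 0.10, against 0.098 for all genes.

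No fatty acid oxidation gene passed the threshold for a difference between hypoxia and normoxia. In limma's test over all genes with Benjamini-Hochberg adjustment, the smallest adjusted p among the members was 0.908, and 0% of all 16578 genes passed. At an unadjusted p under 0.05, 2 of 29 members were counted, Decr2 and Acadvl, both lower in hypoxia, against 5.3% of all genes in either direction and 2.73% in the lower direction. The members' differences had a median of -0.021, with 12 above 0 and 17 below, beside a median of 0.0011 over all genes. Most of the differences were bounded in the main setting. For 28 of the 29 members the whole 95% interval lay within 0.5 of 0 on the log2 scale. The same held for 94.1% of all genes. Acot1 was the exception among the members. The bound was counted in the main setting alone, and errors were larger in some alternatives. In the deposited value table the Acadvl difference was -0.25 ± 0.34 (SE), against -0.17 ± 0.08 in the main setting. There the Acaa1b difference was -0.24 ± 0.32 (SE), against -0.16 ± 0.09 in the main setting. With the Feature Extraction log ratio the Acot2 difference was 0.32 ± 0.22 (SE), against 0.10 ± 0.08 in the main setting. In all 29 genes the levels of hypoxia and normoxia mice overlapped, a count whose share over all genes was not computed. Less RNA per cell and fewer cells of a type cannot be told apart in whole tissue.

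**Figure D1:**
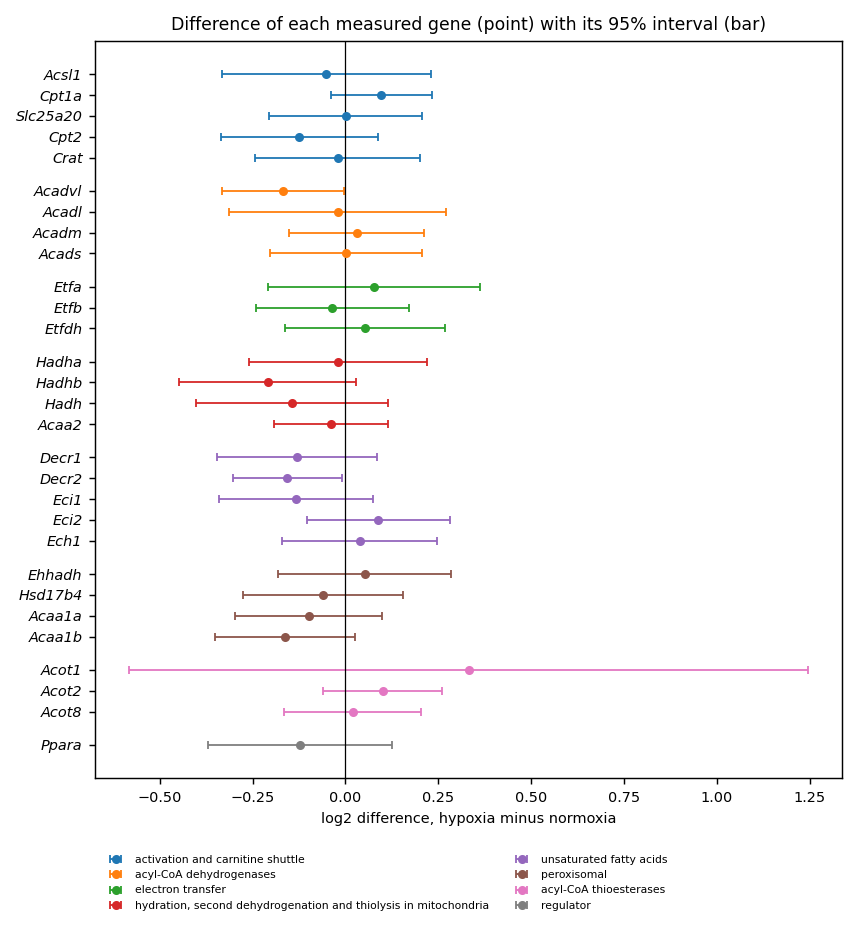
Differences of the 29 measured genes, grouped and coloured by role. The horizontal axis is the log2 difference, hypoxia minus normoxia, points are estimates from limma and bars are 95% intervals (10 hypoxia and 12 normoxia mice). The intervals of Acadvl and Decr2 end just below 0, and that of Acot1, from -0.58 to 1.25, is far wider than the others.

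Of the genes that activate fatty acids and carry them into mitochondria, 5 of 6 were measured, and none reached an unadjusted p under 0.05. Cpt1a encodes carnitine palmitoyltransferase 1A, the malonyl-CoA-sensitive gate to mitochondria (probe at chr19:3385374-3385433, plus strand, mm9). Its lowest, median and highest levels were -0.20, 0.052 and 0.26 in hypoxia mice and -0.21, -0.063 and 0.13 in normoxia mice. In 9 of 10 hypoxia mice Cpt1a lay above the normoxia mean, but the groups overlapped over most of their range. The Cpt1a difference was 0.097 ± 0.066 (SE, unadjusted p = 0.152), and the other tested Cpt1a probe differed by -0.06. Cpt2, the partner enzyme at the inner membrane, differed by -0.12 ± 0.10. Acsl1, the main long-chain acyl-CoA synthetase of adipocytes, differed by -0.052 ± 0.14, and its other tested probe by -0.09. The carnitine-acylcarnitine carrier Slc25a20 (0.00054 ± 0.10) and the carnitine acetyltransferase Crat (-0.021 ± 0.11) had differences close to 0 beside their errors. The muscle form Cpt1b was above background on at most 6 arrays (2 hypoxia, 4 normoxia) and was not tested.

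The 4 acyl-CoA dehydrogenases open each round of the mitochondrial cycle on chains of falling length, and Acadvl, the very long-chain enzyme of the inner membrane, gave the smallest p of them. Acadvl (probe at chr11:69823722-69823781, minus strand, mm9) had lowest, median and highest levels of -0.32, 0.041 and 0.33 in hypoxia mice and -0.035, 0.12 and 0.46 in normoxia mice. Of the 10 hypoxia mice, 8 lay below the normoxia mean, and the 4 lowest of all 22 levels were in hypoxia mice. The mean was -0.0059 ± 0.20 in hypoxia (SD, n = 10) and 0.16 ± 0.15 in normoxia (SD, n = 12). The difference was -0.17 ± 0.08 (SE), or 1.12-fold lower, with an adjusted p of 0.933 in limma and an unadjusted p of 0.0454. It was below 0 on each of the 5 slides with both groups, from -0.22 to -0.12. The other dehydrogenases had larger p: the long-chain Acadl differed by -0.021 ± 0.14, the medium-chain Acadm by 0.030 ± 0.089 and the short-chain Acads by 0.0025 ± 0.10.

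The electron transfer genes, Etfa and Etfb for the subunits of ETF and Etfdh for the membrane enzyme that passes its electrons to ubiquinone, differed by 0.076 ± 0.14, -0.036 ± 0.10 and 0.053 ± 0.10. Etfa (probe at chr9:55309428-55309487, minus strand, mm9) spread widely in both groups. Lowest, median and highest Etfa levels were -0.56, 0.26 and 0.74 in hypoxia mice and -0.27, 0.25 and 0.67 in normoxia mice. The groups covered nearly the same range, and the unadjusted p was 0.59. Its other tested probe differed by 0.03.

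The later steps of the mitochondrial cycle are carried by the trifunctional protein, encoded by Hadha and Hadhb, and by Hadh and the thiolase Acaa2. All 4 differences were below 0, and none had an unadjusted p under 0.05. Hadhb (probe at chr5:30510925-30510984, plus strand, mm9) had the lowest difference of all members, -0.21 ± 0.12 (unadjusted p = 0.0822). Hadhb levels had a lowest, median and highest value of -0.31, 0.13 and 0.53 in hypoxia mice and -0.10, 0.26 and 0.89 in normoxia mice. Hypoxia mice held the lowest levels and 7 of 10 lay below the normoxia mean, with overlap through the middle of the range. Hadha, the other subunit of the same protein, differed by -0.021 ± 0.12. Hadh, which oxidises hydroxyacyl-CoA of shorter chains, differed by -0.14 ± 0.13, and 9 of 10 hypoxia mice were below the normoxia mean. Acaa2 differed by -0.038 ± 0.075.

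Unsaturated chains need extra enzymes that move or remove double bonds. Decr2, the peroxisomal 2,4-dienoyl-CoA reductase, had the smallest p of all members (probe at chr17:26218760-26218819, minus strand, mm9). Its lowest, median and highest levels were -0.24, -0.13 and 0.026 in hypoxia mice and -0.24, 0.098 and 0.27 in normoxia mice. All 10 hypoxia mice lay below the normoxia mean, as was the case for 0.941% of all genes, while the lowest normoxia mice were as low as the lowest hypoxia mice. The Decr2 mean was -0.10 ± 0.09 in hypoxia (SD, n = 10) and 0.057 ± 0.17 in normoxia (SD, n = 12). The difference was -0.16 ± 0.07 (SE), or 1.11-fold lower, with an adjusted p of 0.908 in limma and an unadjusted p of 0.0376. Within slides it ran from -0.38 to 0.12 and was below 0 on 4 of 5.

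The mitochondrial reductase Decr1 differed by -0.13 ± 0.11, with its other tested probe at 0.07. Among the isomerases, Eci1 differed by -0.13 ± 0.10, Eci2 by 0.089 ± 0.094 and Ech1 by 0.039 ± 0.10. No direction was shared by the 5 genes of this step.

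**Figure D2:**
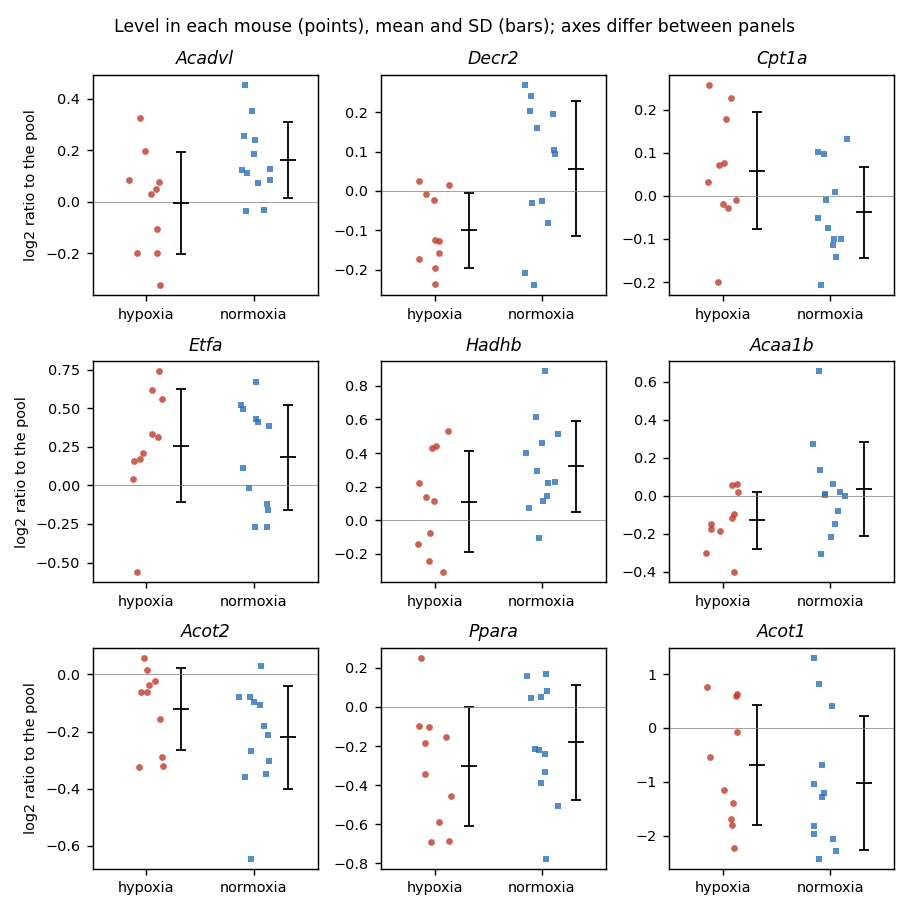
Levels of 9 members in each mouse, as log2 ratios to the pool, with hypoxia mice (circles, n = 10) left of normoxia mice (squares, n = 12). Bars give the mean and SD, and the vertical axes differ between panels. The groups overlap in every panel, and Acot1 spans from -2.43 to 1.29, a wider range than that of the other genes.

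Peroxisomal oxidation was represented by the bifunctional enzymes Ehhadh (0.052 ± 0.11) and Hsd17b4 (-0.061 ± 0.11) and by the thiolases Acaa1a (-0.099 ± 0.097) and Acaa1b (-0.16 ± 0.09). Acaa1b (probe at chr9:119057326-119057385, minus strand, mm9) had lowest, median and highest levels of -0.40, -0.13 and 0.063 in hypoxia mice and -0.31, 0.0061 and 0.65 in normoxia mice. Of the 10 hypoxia mice 8 lay below the normoxia mean, and the unadjusted p was 0.0867. Both thiolase genes encode similar proteins, and whether a probe also binds the other transcript was not tested.

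Acyl-CoA thioesterases release free fatty acids from CoA esters, Acot1 in the cytosol, Acot2 in mitochondria and Acot8 in peroxisomes. Their differences were all above 0, at 0.33 ± 0.45, 0.10 ± 0.08 and 0.019 ± 0.090 (SE), and none had an unadjusted p under 0.05. The other tested Acot8 probe differed by 0.0081. Acot2, above background on 15 of 22 arrays (7 hypoxia, 8 normoxia), had lowest, median and highest levels of -0.32, -0.063 and 0.057 in hypoxia mice and -0.65, -0.20 and 0.031 in normoxia mice. Its groups overlapped, with 7 of 10 hypoxia mice above the normoxia mean. With the Feature Extraction log ratio the Acot2 difference was 0.32 ± 0.22 (SE).

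Ppara, the gene of PPAR alpha, differed by -0.12 ± 0.12 (unadjusted p = 0.316) at the probe with the highest signal (chr15:85632110-85632169, plus strand, mm9). Its lowest, median and highest levels were -0.69, -0.26 and 0.25 in hypoxia mice and -0.78, -0.22 and 0.17 in normoxia mice, so that neither group stood apart. The Ppara probe used was above background on 18 of 22 arrays (8 hypoxia, 10 normoxia). Both other Ppara probes differed by -0.04. The one at chr15:85632534-85632593 was above background on 22 of 22 arrays and had a smaller error (-0.037 ± 0.070, SE). Bdh1, which interconverts the ketone bodies acetoacetate and 3-hydroxybutyrate, had 3 probes above background on 0, 2 and 4 of 22 arrays and was not tested.

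Acot1 varied between mice far more than any other member. Its standard deviation within groups was 1.19, at the 99.7th percentile of all genes, while the median was 0.24 over the members and 0.23 over all genes. The lowest, median and highest Acot1 levels were -2.23, -0.85 and 0.75 in hypoxia mice and -2.43, -1.25 and 1.29 in normoxia mice. Levels above 0 occurred in hypoxia replicates 7, 9 and 10 (0.60, 0.64 and 0.75) and in normoxia replicates 2, 5 and 6 (1.29, 0.82 and 0.40). The Acot1 probe was above background on 10 of 10 hypoxia and 10 of 12 normoxia arrays. High and low mice thus occurred at both oxygen levels, and the unadjusted p of the group difference was 0.462. Without the 3 arrays that had the largest share of spots above background in Cy3 (hypoxia replicate 3, normoxia replicates 2 and 6), the Acot1 difference was 0.82 (unadjusted p = 0.0602, adjusted p = 0.905 in limma). With slide as a fixed block, or without slide 2, it was 0.064, without hypoxia replicate 7 it was 0.19 and without hypoxia replicate 10 it was 0.17.

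The mice with high Acot1 also had high levels of epithelial markers. A list of 12 such markers was drawn up after the genes that follow Acot1 had been seen, so its relation to Acot1 is given as a description with no test. Of the 12, 5 were measured and 7 were above background on at most 7 arrays, among them the defining adhesion genes Epcam and Cdh1. Over the 22 mice, as deviations from group means, Acot1 correlated with the keratins Krt8 (Pearson's r = 0.951) and Krt18 (0.946), the tight junction gene Cldn7 (0.952) and the membrane protein gene Prom1 (0.953), but only at 0.307 with Krt7. Spearman's rho was 0.932, 0.912, 0.927, 0.930 and 0.265 in the same order. Without the 2 mice farthest from the Acot1 median, r was 0.926 to 0.936 for the first 4, and within slides it was 0.909 to 0.940. The mean of the 5 markers had a lowest, median and highest level of -1.77, -0.86 and 0.72 in hypoxia mice and -1.80, -1.06 and 1.06 in normoxia mice. Its r with Acot1 was 0.974.

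**Figure D3:**
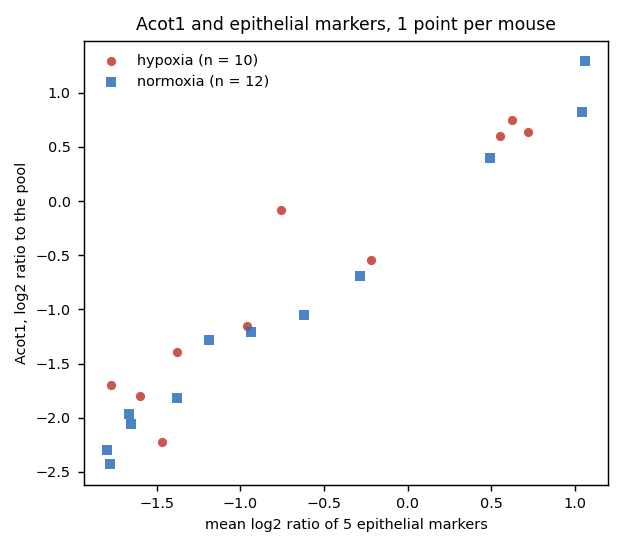
Acot1 level (vertical axis, log2 ratio to the pool) against the mean level of 5 epithelial markers (horizontal axis, log2), 1 point per mouse, hypoxia as circles (n = 10) and normoxia as squares (n = 12). Mice of both groups lie along 1 line, with 3 hypoxia and 3 normoxia mice at its upper end.

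Of all genes with a plain symbol, those whose deviations were most like those of Acot1 over the 22 mice were Hpn (r = 0.982), Nt5e (0.978), Plet1 (0.976), Cideb (0.976), Cited4 (0.975) and Celsr1 (0.975), a choice made after the values were seen. Of 16 markers of epididymis and efferent duct 4 were measured, and their mean ran from -2.88 to 0.22 in hypoxia mice and from -2.88 to 2.16 in normoxia mice. With the epithelial mean as a covariate, an alternative chosen after seeing the data, the Acot1 difference was 0.22. The markers in this covariate were listed after the genes that follow Acot1 had been seen, so no p is given. The part of epithelial tissue in the Acot1 levels was not tested. Acot2 had a standard deviation of 0.16 within groups in the main setting, and its r with Acot1 was 0.273.

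Some other members ran against the epithelial mean. Correlations of at least 0.5 in size were found for Acot1 (positive) and for Ehhadh (-0.613), Hadhb (-0.598), Cpt2 (-0.595) and Eci1 (-0.528). They are given with no test. Within slides the 4 negative ones were -0.513, -0.430, -0.666 and -0.385. The median over the 29 members was -0.188. Of 61 other pathway genes, 5 had a positive and 10 a negative correlation of at least 0.5 in size, with a median of -0.10. The share over all genes was not computed. Members were also compared with the mean level of the 8 adipocyte markers. This mean ran from 0.036 to 0.87 in hypoxia mice and from -0.23 to 0.88 in normoxia mice. How far either mean follows tissue content was not tested.

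One member, Acsl1, followed the adipocyte mean (Pearson's r = 0.801, permutation p = 0.0002, adjusted p = 0.009 over 90 genes, with 100000 resamples; Spearman's rho = 0.467, adjusted p = 0.342). It rested on few mice: Acsl1 was highest in normoxia replicate 3 (1.29) and hypoxia replicates 5 and 7 (0.98 and 0.66), which also had the highest adipocyte means (0.88, 0.70 and 0.87) and all lay on slide 1. Without slide 1, r was 0.287 (adjusted permutation p = 0.741), and with the mean of both tested Acsl1 probes it was 0.608 (adjusted permutation p = 0.0857). Without the 2 mice farthest from the median of the adipocyte mean, r was 0.609, and within slides it was 0.685 (adjusted permutation p = 0.0102). No other member passed over all 22 mice, and 2 of 61 other pathway genes did. Within slides Acot1 also passed, running against the adipocyte mean (r = -0.596, adjusted permutation p = 0.0337), while over all mice its r was 0.034 (adjusted p = 0.967).

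RNA levels were compared in 8 pairs of members over the 22 mice, as deviations from group means. The permutation test used 100000 resamples and was adjusted over the pairs. Some pairs encode protein partners and others close relatives (Acot1 and Acot2, Acaa1a and Acaa1b). The rest set the regulator Ppara beside Cpt1a or Acsl1. The subunits of ETF, Etfa and Etfb, varied together (r = 0.751, permutation p = 3e-05, adjusted p = 0.00024; Spearman's rho = 0.713, adjusted p = 0.002). Without the 2 mice farthest from the Etfa median, r was 0.649, and within slides it was 0.579 (adjusted permutation p = 0.037). The subunits of the trifunctional protein, Hadha and Hadhb, did not pass (r = -0.041, adjusted permutation p = 0.867; rho = -0.142, adjusted p = 0.705). The other 6 pairs did not pass either. Their r was 0.324 for Etfb and Etfdh, 0.161 for Acadm and its electron acceptor Etfa, -0.320 for the thiolases Acaa1a and Acaa1b, 0.102 for Ppara and Cpt1a, 0.038 for Ppara and Acsl1, and 0.273 for Acot1 and Acot2. In the deposited value table, of unstated normalization, 7 of the 8 pairs passed, among them Hadha and Hadhb (r = 0.691) and Acaa1a and Acaa1b (r = 0.933).

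Across all 406 pairs of members the median r was 0.140, and 14.3% were at least 0.5, beside a median of 0.022 and 5.36% over all pairs of genes, given as a description. The highest were Slc25a20 with Acadl (0.782), Acadl with Etfa (0.777), Hadh with Acaa1a (0.774) and Acadvl with Decr1 (0.749). The lowest 3 all joined Acot1 to another member: Ehhadh (-0.615), Hadhb (-0.610) and Acaa1b (-0.587). Mice shared slides and labelling, which these values do not separate.

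**Figure D4:**
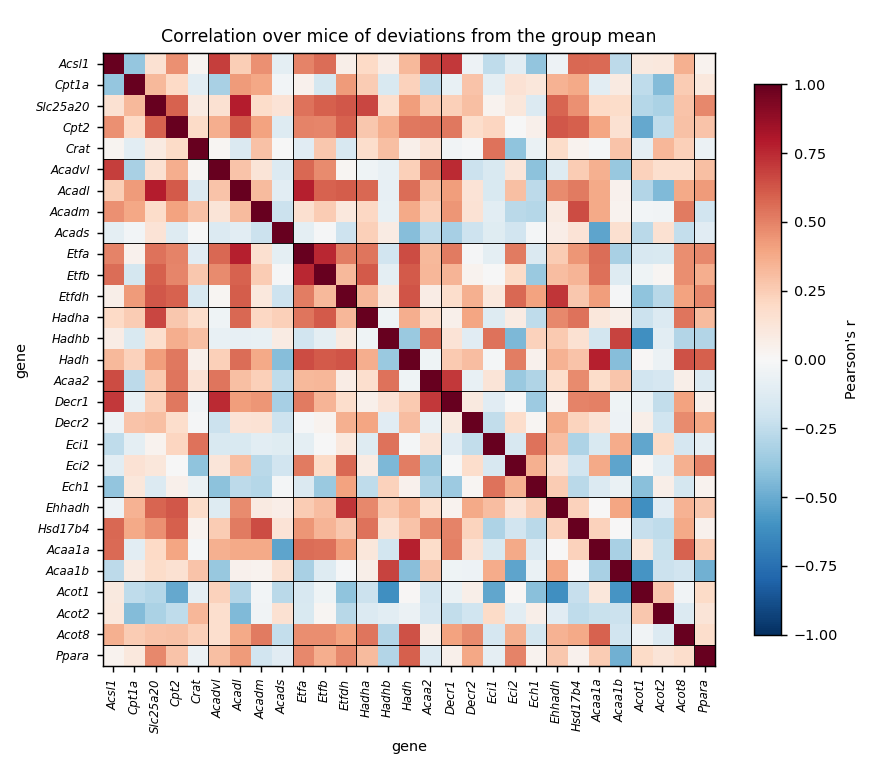
Pearson's r over the 22 mice between each pair of the 29 members, as deviations from group means, with red for positive and blue for negative values, and lines between roles. Carrier, dehydrogenase and electron transfer genes such as Slc25a20, Acadl and Etfa form red patches, while the deepest blue cells lie in the Acot1 row.

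Other genes of the pathway were taken from 3 lists. Of 34 further oxidation genes 31 were measured, none had an unadjusted p under 0.05, and their median difference was -0.037. The smallest p were those of the peroxisomal oxidase Acox3 (-0.20 ± 0.10, p = 0.0658), the dehydrogenase Acad9 (-0.16 ± 0.09, p = 0.0848) and the synthetase Acsl4 (0.14 ± 0.09, p = 0.115). The other tested probes of Acox3 differed by -0.05 and -0.34, and with the mean of all tested probes Acox3 differed by -0.20 ± 0.06 (unadjusted p = 0.00264, adjusted p = 0.615 in limma). All 7 further ketone body genes were measured, none had an unadjusted p under 0.05, and their median difference was 0.0078. Slc16a1, a carrier of lactate and ketone bodies, differed by 0.096 ± 0.073 and the acetoacetyl-CoA synthetase Aacs by -0.11 ± 0.09.

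Of 26 further regulators and PPAR-responsive genes 23 were measured, with 1 lower and 1 higher at an unadjusted p under 0.05, against 2.73% and 2.58% of all genes. Esrra, the gene of estrogen-related receptor alpha, which activates mitochondrial and oxidation genes, was the lower one. Lowest, median and highest Esrra levels were -0.44, -0.32 and 0.045 in hypoxia mice and -0.20, -0.00057 and 0.26 in normoxia mice. In 9 of 10 hypoxia mice Esrra lay below the normoxia mean, and 6 of them were below every normoxia mouse. The difference was -0.26 ± 0.08 (SE, unadjusted p = 0.00182, adjusted p = 0.513 in limma), and on the 5 slides with both groups it ran from -0.41 to -0.12. Its coactivator genes Ppargc1a (-0.043 ± 0.15) and Ppargc1b (-0.025 ± 0.091) had differences close to 0 beside their errors.

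Pdk4, which encodes a kinase that shuts off pyruvate dehydrogenase and so spares glucose, was the higher one. Its lowest, median and highest levels were -1.42, -0.39 and 0.30 in hypoxia mice and -1.80, -0.82 and 0.038 in normoxia mice, and 9 of 10 hypoxia mice lay above the normoxia mean. The difference was 0.45 ± 0.18 (SE, unadjusted p = 0.0168, adjusted p = 0.846 in limma), from 0.26 to 0.94 within slides. Without the 3 arrays of largest Cy3 share it was 0.29 (unadjusted p = 0.0906). Fgf21, a fasting hormone of the liver that fat also expresses, differed by 0.22 ± 0.11 (unadjusted p = 0.0589), with lowest, median and highest levels of -0.13, 0.015 and 0.55 in hypoxia mice and -0.52, -0.15 and 0.27 in normoxia mice. The Fgf21 probe was above background on 13 of 22 arrays, and the difference moved between 0.069 with Cy5 alone and 0.53 with the Feature Extraction log ratio. It was 0.11 without the 3 arrays of largest Cy3 share and 0.32 (unadjusted p = 0.0161) without slide 1. The PPAR-responsive lipase inhibitor Angptl4 (0.32 ± 0.19, unadjusted p = 0.104) and the lipid droplet gene Plin2 (0.21 ± 0.13, unadjusted p = 0.131) did not pass.

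**Figure D5:**
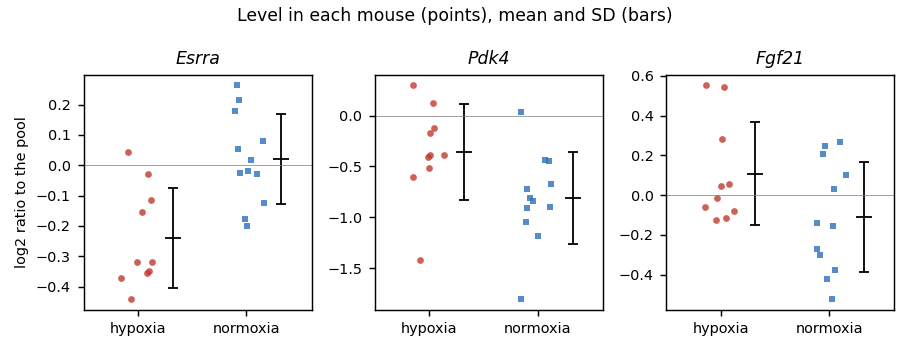
Levels of Esrra, Pdk4 and Fgf21 in each mouse, as log2 ratios to the pool, with hypoxia mice (circles, n = 10) left of normoxia mice (squares, n = 12) and bars for the mean and SD. For Esrra most hypoxia mice lie below the normoxia mice, and for Pdk4 1 hypoxia mouse at -1.42 lies far below the others of its group.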

How the data were processed

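Per the file headers, the deposited scanner files came from Agilent Feature Extraction 10.7.3.1, and their signal and background columns are deposited intensity values as scanned. The log ratio the authors deposited in the same files is log10 of Cy5 over Cy3, and the series' value table, deposited on a log2 scale, holds levels of unstated normalization. Both served as alternatives.

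In limma 3.58.1 under R 4.3.3, the background was corrected by normexp (offset 50), each array was normalized by loess, flagged spots were left out and replicate spots averaged. A probe entered the test with 10 or more arrays well above background in Cy5 and at least 2 unflagged values per group. The probe with the highest mean intensity stood for a gene, and the differences of a gene's other tested probes are given for members. The log2 ratio was fitted by group alone (lmFit and eBayes), with Benjamini-Hochberg adjustment over 16578 genes at 0.05. The test was checked on simulated data, drawn without slide effects or correlation between genes. Correlations used deviations from group means and two-sided permutation tests. Replicates are mice, described by the submitters as biological replicates.

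All members are described. Levels by mouse are given for members with an unadjusted p under 0.05, for the smallest p of each role, and for Acot1, added after its values were seen. Among other pathway genes, those with an unadjusted p under 0.05 and the 3 smallest p of each list are named, except for 1 gene that is not reported here, and Ppargc1a, Ppargc1b, Angptl4 and Plin2 were added after their values were seen. Members and lists were chosen with earlier results of these data known. Probe positions are those of the files, on mm9, and the exon or UTR under a probe was not analysed here.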

Additional observations from a re-analysis of the deposited data

Results flagged for a closer look

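Among the 10 hypoxia mice, the highest and lowest level of each of 38 genes was compared with the other 9, and 3 genes had a mouse far from the rest, where chance at 1 in 20 would give 1.9. Acads was 0.35 in hypoxia replicate 2, with the other hypoxia mice between -0.42 and -0.029. Acaa2 was 0.41 in hypoxia replicate 5, on slide 1, with the others between -0.25 and 0.089. Pdk4 was -1.42 in hypoxia replicate 10, with the others between -0.61 and 0.30. Without this mouse the Pdk4 difference was 0.57. The mouse is named here for its low Pdk4 level, so leaving it out had to raise the difference, and no p is given. Their causes were not tested.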

How the results depend on the processing

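No member passed limma's test under any of the 18 alternatives, and the members' median difference stayed below 0, from -0.10 to -0.011. The number of members at an unadjusted p under 0.05, 2 in the main setting, was 1 with the Feature Extraction log ratio, with probes above background on all arrays or without hypoxia replicate 7. It was 0 in the deposited value table, with Cy5 alone, with an offset of 16 or with the replicate number as a block, and 4 without the 3 arrays of largest Cy3 share. Acadvl kept an unadjusted p under 0.05 in 14 of 18 alternatives, Decr2 in 10 of 17, Esrra in 17 of 18 and Pdk4 in 16 of 18. These counts do not measure robustness, because some alternatives left a gene's own values unchanged. With flagged spots kept or the mean of all tested probes, for example, the Acadvl difference was -0.168, as in the main setting. Its unadjusted p in limma was 0.470 in the value table and 0.103 with Cy5 alone. It was 0.0572 with an offset of 16 and 0.0813 with the replicate block. Over all genes, 0 passed in the main setting, against 1 with the Feature Extraction log ratio, with scaled arrays or with slide as a random block. The count was 2 with Cy5 alone, on all arrays above background, with slide as a fixed block or without slide 1, 3 without hypoxia replicate 7 and 6 with the epithelial covariate, which was added after seeing the data.

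No pairing of mice by replicate number was seen in the levels. Own-number correlations ran from -0.47 to 0.25, and for 0 of 10 hypoxia mice was the own number the best. Slide was not removed in this check, and other kinds of pairing were not tested. With the replicate block 0 genes passed, the Decr2 difference was -0.16 and the Acadvl difference -0.16.

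The Etfa difference turned to -0.018 with the Feature Extraction log ratio, -0.034 in the value table and -0.037 without the 3 arrays of largest Cy3 share. Among the 8 pairs of members, 1 passed in the main setting and 7 in the value table. The count was 2 with the Feature Extraction log ratio, Cy5 alone or an offset of 16. There Etfb and Etfdh were the pair gained (r = 0.667, 0.527 and 0.526). Hadha and Hadhb turned positive at 0.177, 0.691 and 0.064 with the Feature Extraction log ratio, the value table and Cy5 alone, at 0.115 without slide 1 and at 0.040 without hypoxia replicate 7 (-0.044 without hypoxia replicate 10). Acaa1a and Acaa1b turned to 0.146 with the Feature Extraction log ratio and 0.933 in the value table, and Acadm and Etfa to -0.122 with Cy5 alone. Acot1 and Acot2 turned to -0.262 with the Feature Extraction log ratio, -0.251 with Cy5 alone and -0.037 within slides. Ppara and Acsl1 turned to -0.018 with an offset of 16, -0.011 without slide 2 and -0.045 within slides. Ppara and Cpt1a turned to -0.201 with the Feature Extraction log ratio and -0.032 without slide 2. The number of members that passed the test against the adipocyte mean, in either direction, was 1 in the main setting, beside 2 of 61 other pathway genes. It was 10 with the Feature Extraction log ratio (beside 20 of 61), 27 in the value table (56 of 61) and 3 with Cy5 alone (11 of 61), in each case with Acot1 running against the mean. It was 0 with the mean of all tested probes or without slide 1, and 2 without hypoxia replicate 7, without hypoxia replicate 10 or within slides, where Acot1 again ran against it. The causes of these changes were not tested. The Acot1 correlation with the epithelial mean lay between 0.914 and 0.982 in the 13 alternatives that gave one.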

Other observations

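Other genes of the pathway also varied with the epithelial mean over the 22 mice, given as correlations of deviations from group means with no test and with genes picked after their values were seen. Nudt19, a peroxisomal hydrolase of CoA esters, had r = 0.930, the fatty acid binding protein gene Fabp3 0.837, the coactivator gene Ppargc1a 0.818 and Amacr, a racemase of branched chains, 0.770. Negative values were found for Nudt7 (-0.751), the adipocyte receptor gene Pparg (-0.739) and Acsl4 (-0.698). The adipocyte mean was followed by the sterol carrier gene Scp2 (r = 0.804, adjusted permutation p = 0.0018) and by the fatty acid transporter Cd36 (r = 0.672, adjusted permutation p = 0.0267), of which Scp2 also passed within slides (r = 0.657, adjusted permutation p = 0.0102). For Cd36 the value within slides was 0.333 (adjusted permutation p = 0.347). Within slides 9 of the 61 other pathway genes passed in all, 6 of them positive, Scp2, Aacs (r = 0.798), Acad11 (0.746), Pparg (0.718), Lpin1 (0.611) and Acaca (0.576), and 3 negative, Nudt19 (-0.710), Amacr (-0.622) and Acot13 (-0.578).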
